A study of Mus musculus with 18 samples.

Results

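Dopamine neurons of the substantia nigra (SN) and of the ventral tegmental area (VTA) were compared for how far their gene expression differed between mice given MPTP for 2 days and mice given saline. The comparison used 12 arrays of the 18 in the study, namely the 3 arrays of each of Control SN, 2 day MPTP SN, Control VTA and 2 day MPTP VTA. Each array's group was taken from its labels. All mice were adult C57Bl/6 animals carrying the hTH-GFP transgene, housed singly for 9 weeks. The 2 day groups received MPTP at 4 mg/kg for 2 days, and all mice were killed 7 days after the last injection. Per the study's design text the controls were injected with saline on 10 days, so they differ from the 2 day groups in the number of injection days as well as in the drug, while the short descriptions of the same arrays call them untreated. The neurons were cut out of frozen brain by laser capture microdissection, and their RNA was amplified, labelled with biotin and hybridised to Affymetrix whole-genome arrays.

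The labels name the replicates biological. They do not say how many mice an array holds, whether the SN and VTA of 1 mouse were both used, or how the neurons were recognised before capture. If RNA was pooled, the p-values measure only the spread between these arrays. If mice were shared between the regions, the SN and VTA arrays are not independent, and the main fit leaves that pairing out. In RNA from captured tissue, fewer cells of a type and less RNA per cell cannot be told apart. The deposited values are log2 signals from which the median of each probe set over the 18 arrays had been taken away. They hold no level and no detection call, so whether a marker of the labelled cells was absent could not be checked, and 1 gene's value cannot be set against another's.

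MPTP is turned into the toxic cation MPP+ by monoamine oxidase B, which in the brain lies mostly in glia. MPP+ enters dopamine neurons through the dopamine transporter, is held in vesicles by the vesicular monoamine transporter, and blocks complex I of the mitochondrial respiratory chain. Neurons of the SN are lost more readily than those of the VTA in Parkinson disease and after MPTP. The question that a difference of responses addresses is whether the same exposure was followed by unlike changes in the neurons of the SN and the VTA.

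For each gene, the mean of its probe sets was used, and 18193 genes were tested with limma. The VTA response is 2 day MPTP VTA minus Control VTA, and the SN response is 2 day MPTP SN minus Control SN. The response difference is the VTA response minus the SN response, and a positive value means that the VTA response lay above the SN response. The same number is reached by taking VTA minus SN after 2 days and subtracting VTA minus SN in the controls, so each response difference can be divided into a part from the control arrays and a part from the 2 day arrays. All of these are log2 differences, where 1 is a 2-fold difference. Errors are standard errors (SE) of the model and intervals are 95% intervals.

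No gene passed an adjusted p of 0.05 for the response difference in limma, 0 of 18193 genes (0%). At an unadjusted p under 0.05 there were 601 genes (3.30%), fewer than the 910 expected with no difference in any gene. Of the 601, 359 (1.97%) had a higher VTA response and 242 (1.33%) a lower one. The smallest adjusted p, 0.701 in limma, was shared by 4 genes, Zfp112, Lmo1, Zwilch and P2rx7. No response difference of a single gene given from here on is therefore a call. The genes described first are those of smallest p, and genes of the lists and of the responses follow. The median SE over genes was 0.27, so that the interval of a typical gene reached 0.572 to either side of its estimate, a 1.49-fold difference. For 13200 genes, 72.6% of those tested, the whole interval lay within 1 either side of 0, which sets a limit of 2-fold on their measured response difference. With no level or detection call, genes not expressed in these neurons could not be set apart among them.

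The separate responses held somewhat more genes. In the VTA, 2 genes (0.0110%) passed in limma, Wdfy1 and Capsl, and 1467 (8.06%) stood at an unadjusted p under 0.05. In the SN no gene passed in limma (0%), and 1210 (6.65%) stood at an unadjusted p under 0.05. A gene that passes in the VTA and not in the SN is not shown to respond differently, and for Wdfy1 and Capsl the response difference itself had limma adjusted p-values that round to 1.00. Between the regions, 794 genes (4.36%) stood at an unadjusted p under 0.05 in the controls and 508 (2.79%) after 2 days of MPTP. Both counts lie below the 910 expected with no difference, and no gene passed in limma in either (0%). The arrays of the regions were wholly apart in 1329 genes in the controls (7.31%) and in 1554 after 2 days (8.54%).

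The control arrays carried somewhat over 50% of the response differences, where 2 pairs of equal spread would give about 50% each. Over all genes, VTA minus SN in the controls gave 53.9% of the summed squares of both VTA minus SN differences. Among the 601 genes the control pair gave a median of 56.2% of the response difference, with quartiles of 39.8% and 70.7%. The control pair gave over 50% in 353 of them and the 2 day pair in 248. In 582 of the 601 genes VTA minus SN had opposite signs in the controls and after 2 days, and in 547 the responses themselves had opposite signs. The larger response was that of the VTA in 350 of the 601 and that of the SN in 251. Because the 601 were picked on the sum of the parts, these counts describe how the picked differences are built and carry no test. A control share above 50% says only that the larger of the VTA minus SN differences lay on the control arrays.

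**Figure D1:**
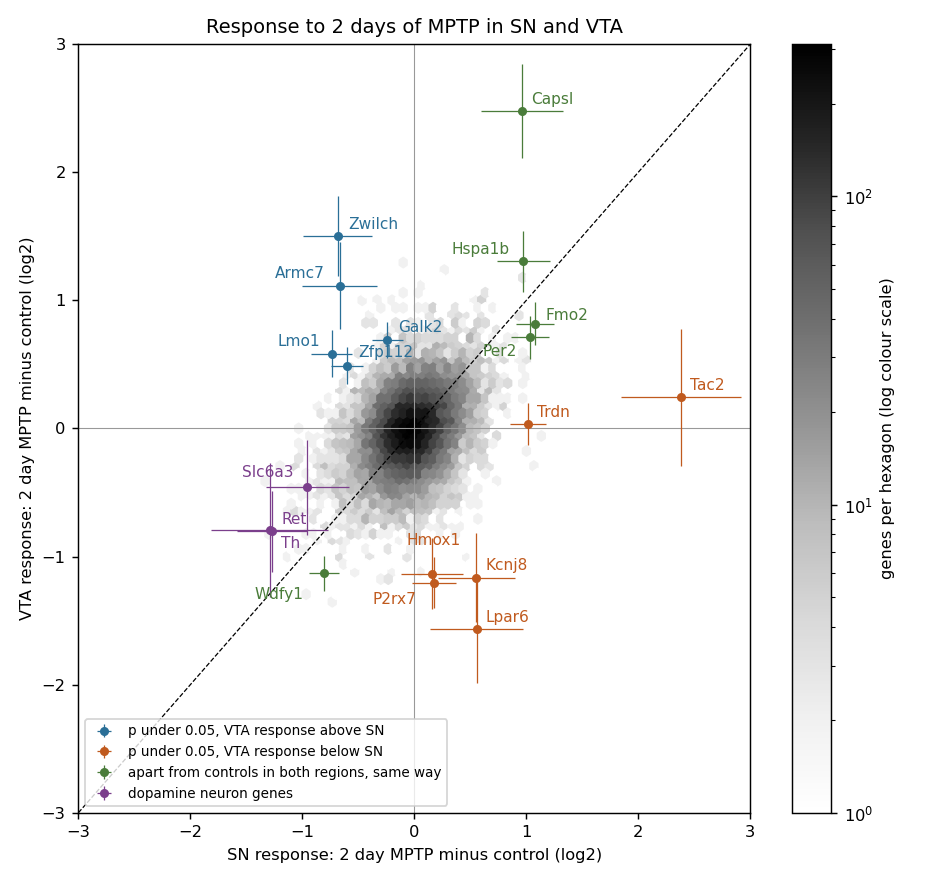
The response to 2 days of MPTP in the SN (x axis) and in the VTA (y axis), both as log2 differences from controls, with the density of 18193 genes in grey, the line of equal response dashed, and named genes with their SE. Zwilch, Armc7 and Lmo1 lie in the quadrant with a higher VTA and a lower SN value, P2rx7, Hmox1, Kcnj8 and Lpar6 in the opposite one, and Wdfy1, Per2, Fmo2 and Hspa1b near the dashed line.

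Zwilch, Lmo1 and Zfp112 had a VTA response above and an SN response below 0, and in all 3 genes the control regions stood apart. Zwilch codes for a subunit of the kinetochore complex that it forms with Rod and Zw10. Its centred values were 0.91, 0.42 and 0.45 in Control SN, -0.36, -0.20 and 0.29 in 2 day MPTP SN, -1.54, -0.61 and -1.48 in Control VTA and -0.15, 0.11 and 0.91 in 2 day MPTP VTA. Every SN array after MPTP lay below every SN control, and every VTA array after MPTP lay above every VTA control. The VTA response was 1.50 ± 0.31 and the SN response -0.68 ± 0.31, which gave a response difference of 2.18 ± 0.44 with an interval of 1.26 to 3.11 and a limma adjusted p of 0.701. VTA minus SN went from -1.81 in the controls to 0.38 after 2 days, so the controls gave 82.7% of the response difference. After 10 days of MPTP it stood at -0.35.

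Lmo1, a LIM-domain cofactor of transcription, had values of 0.44, 0.79 and 0.56 in Control SN and 0.015, -0.015 and -0.42 in 2 day MPTP SN. In the VTA it had -0.36, -0.50 and -0.25 in the controls and -0.15, 0.50 and 0.30 after 2 days. The groups were apart in both regions, in opposite directions. Its response difference was 1.32 ± 0.26, with an interval of 0.77 to 1.87 and a limma adjusted p of 0.701, and the controls gave 73.1%. Zfp112, a zinc finger protein gene, had values of 0.35, 0.20 and 0.40 in Control SN, -0.33, -0.35 and -0.16 in 2 day MPTP SN, -0.69, -0.44 and -0.46 in Control VTA and -0.15, -0.019 and 0.047 in 2 day MPTP VTA. Here all 4 groups were free of overlap between regions as well as between treatments, with the VTA below the SN in the controls and above it after 2 days. The response difference was 1.09 ± 0.20, with an interval of 0.66 to 1.51, a limma adjusted p of 0.701 and 77.8% from the controls. Each of these 3 genes is read by 1 probe set, so no other probe set could be set beside them.

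The other genes of smallest p with a higher VTA response had response differences from 0.62 to 1.78. Galk2, a kinase of N-acetylgalactosamine, had a response difference of 0.93 ± 0.20, with a VTA response of 0.69 ± 0.14 and an SN response of -0.24 ± 0.14. Ostm1, the partner subunit of a lysosomal chloride transporter, had 0.73 ± 0.17, and its controls gave 44.2%, less than in most of this group. Its values were 0.28, 0.39 and 0.16 in Control SN, -0.16, -0.033 and -0.20 in 2 day MPTP SN, -0.042, -0.13 and 0.033 in Control VTA and 0.30, 0.29 and 0.23 in 2 day MPTP VTA. The VTA lay wholly below the SN in the controls and wholly above it after 2 days. Polr2h, a subunit common to the RNA polymerases, had a response difference of 0.90 ± 0.22, and Armc7, an armadillo repeat protein, had 1.78 ± 0.48. Ccnq, the cyclin partner of Cdk10, had 1.01 ± 0.28, with 54.3% from the controls.

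For Gja5 and Zfp560 the SN made up most of the response difference. Gja5, which codes for connexin 40, had values of 0.85, 0.38 and 0.64 in Control SN and -0.053, -0.27 and -0.038 in 2 day MPTP SN, while its VTA response was 0.047 ± 0.15. Its response difference was 0.79 ± 0.21. Zfp560, another zinc finger gene, had an SN response of -0.63 ± 0.12 and a VTA response of 0.14 ± 0.12, and both of its probe sets gave a positive response difference.

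Grin2c, the GluN2C subunit of the NMDA receptor and a gene higher in SN than in VTA dopamine neurons in earlier work, had the largest control share of the genes of smallest p. Its values were 0.41, 0.27 and 0.16 in Control SN, -0.031, 0.046 and 0.031 in 2 day MPTP SN, -0.61, -0.17 and -0.49 in Control VTA and 0.36, -0.18 and 0.087 in 2 day MPTP VTA. VTA minus SN was -0.70 in the controls, with no overlap, and 0.074 after 2 days, where the regions overlapped. The response difference of 0.78 ± 0.22 thus came to 90.4% from the controls. The limma adjusted p was 1.00.

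P2rx7, the ATP-gated cation channel of the P2X family, had the smallest p among genes with a lower VTA response. Its values were -0.23, -0.10 and -0.053 in Control SN, -0.089, -0.026 and 0.26 in 2 day MPTP SN, 0.52, 1.09 and 0.55 in Control VTA and -0.53, -0.22 and -0.69 in 2 day MPTP VTA. The VTA controls lay above all other arrays of the 4 groups and the 2 day VTA arrays lay below all others except Control SN array 1, with the SN groups overlapping each other. The VTA response was -1.20 ± 0.20 and the SN response 0.18 ± 0.20. The response difference was -1.38 ± 0.28, with an interval of -1.97 to -0.78, a limma adjusted p of 0.701 and 61.6% from the controls. All 3 of its probe sets gave a negative value.

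Trdn and Lpar6 drew less on the controls. Trdn codes for triadin, a protein of the calcium release complex of the sarcoplasmic reticulum. Its values were -0.18, -0.48 and -0.33 in Control SN and 0.43, 1.15 and 0.48 in 2 day MPTP SN, against -0.14, 0.046 and -0.050 in Control VTA and -0.060, -0.085 and 0.10 in 2 day MPTP VTA. The SN groups were far apart and the VTA groups overlapped. This made a response difference of -0.98 ± 0.23, of which 28.7% came from the controls, and all 6 probe sets gave a negative value. Its limma adjusted p was 1.00. Lpar6, a receptor for lysophosphatidic acid, had values of -0.20, 1.02 and 0.0012 in Control VTA and -2.35, -0.41 and -1.12 in 2 day MPTP VTA, against -0.22, -0.69 and -0.0012 in Control SN and 0.60, 0.24 and -0.081 in 2 day MPTP SN. Lpar6 had a response difference of -2.12 ± 0.59, with 27.2% from the controls, and it rested on a spread of almost 2 units among the 2 day VTA arrays. Without 2 day MPTP VTA array 1 it stood at -1.59.

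Apart from Palb2, described further on, the remaining genes of smallest p with a lower VTA response ranged from -0.68 for Secisbp2l, which binds selenocysteine insertion elements, to -1.12 for Zfp395. They included Xdh, the xanthine dehydrogenase of purine breakdown, at -1.09 ± 0.29, and Kcna3, the voltage-gated potassium channel Kv1.3, at -1.06 ± 0.29. Fcgr1, the high-affinity receptor for immunoglobulin G, stood at -0.78 ± 0.22, and Inpp5f, a phosphoinositide phosphatase, at -0.81 ± 0.21. Copg2 of the COPI vesicle coat was at -0.92 ± 0.24 and Trip10, an F-BAR protein of membrane curvature, at -0.85 ± 0.24. In each of these 8 genes the VTA response lay below 0 and the SN response above it.

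**Figure D2:**
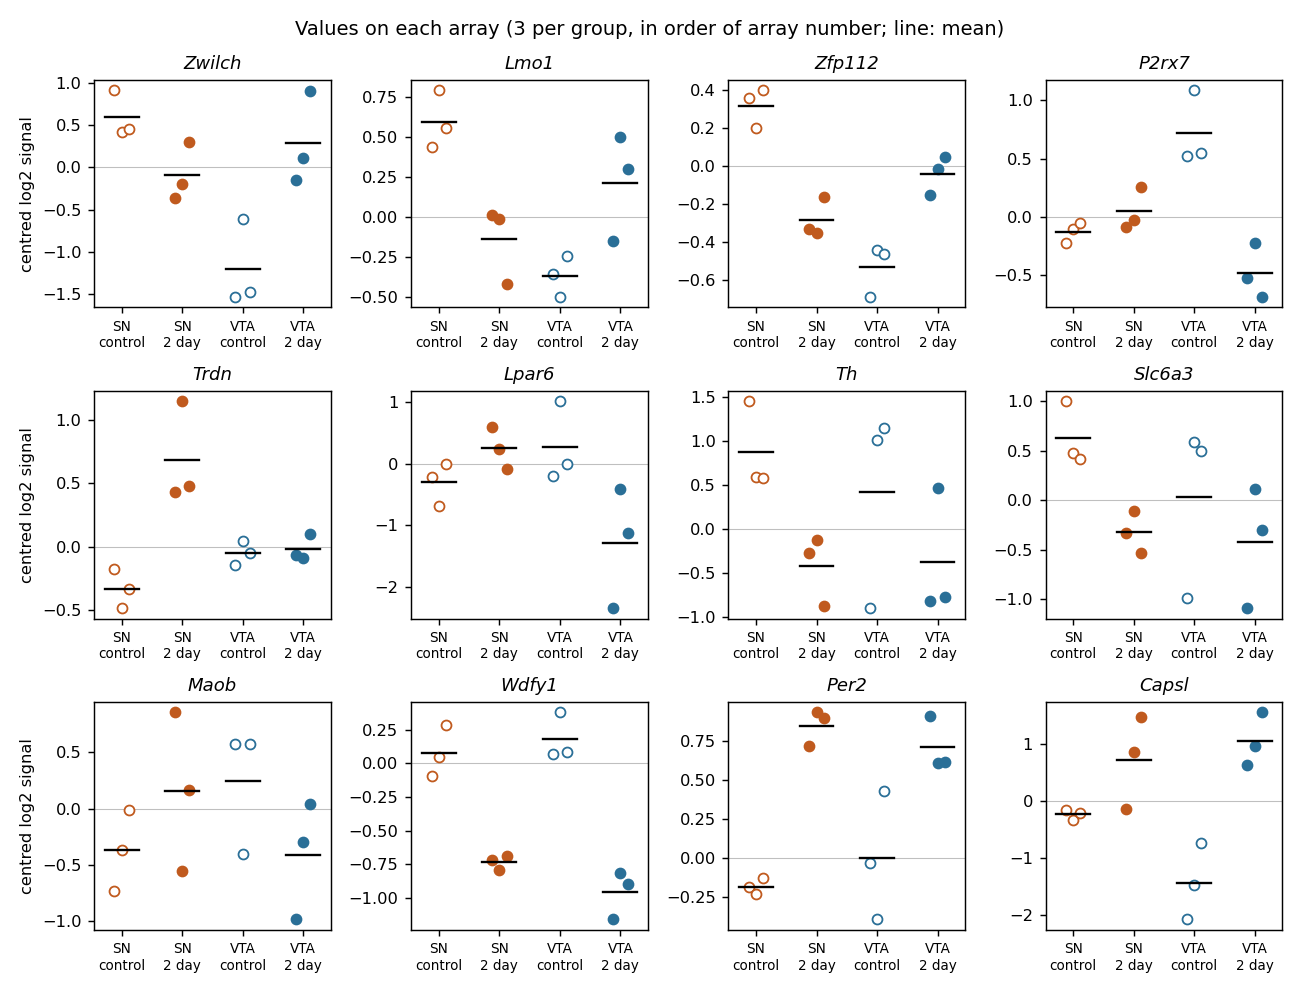
Centred log2 signal of 12 genes on each of the 12 arrays, with SN in orange, VTA in blue, controls as open and 2 day MPTP as filled points, and the mean of 3 arrays as a line. Zwilch, Lmo1 and Zfp112 cross between the regions, P2rx7 and Lpar6 differ mainly in the VTA and Trdn in the SN, while Wdfy1 and Per2 shift the same way in both. In Th and Slc6a3 1 VTA control array lies far below the other 2.

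Genes in which the arrays of both regions stood apart from their controls in opposite directions were few. There were 45 such genes among 18193 (0.247%), 32 with the VTA higher and the SN lower (0.176%) and 13 with the reverse (0.0715%). Groups apart in the same direction in both regions numbered 315 (1.73%), of which 179 were higher after MPTP (0.984%) and 136 lower (0.748%). Within a single region, the 2 day arrays were apart from the controls in 1822 genes in the VTA (10.0%) and 2641 in the SN (14.5%). Of the 601 genes at an unadjusted p under 0.05, 37 were apart in opposite directions.

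Of those with the VTA higher, Lgmn codes for legumain, a lysosomal protease, and had a VTA response of 0.20 ± 0.17 against an SN response of -0.56 ± 0.17. Wdr60, a subunit of the dynein that moves cargo inside cilia, had a response difference of 0.96 ± 0.40, but Control VTA array 1 at -1.25 lay far below the other controls at -0.088 and -0.12. Without that array it stood at 0.58. Mgat4d, a glycosyltransferase family member, had 0.62 ± 0.15, the same sign in both of its probe sets.

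Of those with the VTA lower, Palb2, the partner of Brca2 in DNA repair, had centred values of -0.54, -0.038 and -0.021 in Control SN, 0.026, 0.15 and 0.30 in 2 day MPTP SN, 0.20, -0.097 and 0.52 in Control VTA and -0.40, -0.27 and -0.37 in 2 day MPTP VTA. The 2 day regions did not overlap while the controls did, and its controls gave 44.3% of a response difference of -0.91 ± 0.24. Nfat5, the transcription factor of osmotic stress, had a small value of -0.57 ± 0.19 that was negative in all 6 of its probe sets. Abhd17b, a depalmitoylating enzyme, had -0.58 ± 0.21, negative in all 4 of its probe sets.

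Trak2, an adaptor that links mitochondria to kinesin, had a response difference of -0.66 ± 0.23, with an SN response of 0.47 ± 0.16 and a VTA response of -0.18 ± 0.16. Scarb1, the receptor for high-density lipoprotein, had -0.75 ± 0.26, and Orm1, an acute phase glycoprotein, had -0.52 ± 0.17. Orm1 drew 20.4% on the controls, the least of these genes, and Zfp948, a zinc finger gene, had -0.88 ± 0.32. Ppp1r27, a regulator of protein phosphatase 1, had -0.69 ± 0.27. None of these had a limma adjusted p below 1.00.

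Genes listed for dopamine neuron identity mostly had responses below 0 in both regions. The list held 27 genes, with a median SN response of -0.97, where 25 of 27 were below 0, and a median VTA response of -0.55, where 26 of 27 were below 0. Over all genes those medians were -0.027 and -0.0080. The median response difference was 0.24, with 22 of 27 genes above 0, beside a median of 0.016 and 52.6% above 0 over all genes. It turned to -0.085 without Control VTA array 1 and to -0.11 without array 1 of all 4 groups, so its direction was not settled. None of the 27 stood above 0 at an unadjusted p under 0.05 and 1 stood below, Maob, where 1.97% and 1.33% of all genes did. Maob is in the list but lies mostly in glia, so it does not mark dopamine neurons. Median VTA minus SN was -0.29 in the controls, 0.017 after 2 days and -0.0060 after 10 days.

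Th, tyrosine hydroxylase, the rate-limiting enzyme of dopamine synthesis, had values of 1.45, 0.59 and 0.57 in Control SN, -0.27, -0.12 and -0.87 in 2 day MPTP SN, -0.90, 1.01 and 1.15 in Control VTA and -0.81, 0.46 and -0.77 in 2 day MPTP VTA. The SN groups were apart, while the VTA groups overlapped because Control VTA array 1 lay as low as the 2 day arrays. The SN response was -1.29 ± 0.52, the VTA response -0.79 ± 0.52 and the response difference 0.50 ± 0.74, with an interval of -1.06 to 2.06 and a limma adjusted p of 1.00. That interval allows a VTA response over 2-fold below the SN response as well as one 4-fold above it.

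Slc6a3, the dopamine transporter through which MPP+ enters, had values of 1.00, 0.48 and 0.42 in Control SN, -0.33, -0.11 and -0.53 in 2 day MPTP SN, -0.98, 0.59 and 0.50 in Control VTA and -1.09, 0.11 and -0.30 in 2 day MPTP VTA. The arrangement was that of Th, with 1 low VTA control. For Slc6a3 the response difference was 0.50 ± 0.52, with an interval of -0.61 to 1.60. Slc18a2, the vesicular monoamine transporter, had 0.26 ± 0.61, Ddc, the decarboxylase that forms dopamine, 0.50 ± 0.43, and Ret, the signalling receptor of GDNF, 0.47 ± 0.45. Aldh1a1, which clears dopamine aldehyde and marks the ventral tier of the SN, had 0.22 ± 0.54.

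These values depended on single arrays. The mean over the 27 genes was -0.46, 0.64 and 0.60 on the Control VTA arrays, -0.78, 0.11 and -0.32 on the 2 day VTA arrays, 0.79, 0.40 and 0.35 on the Control SN arrays and -0.43, -0.13 and -0.38 on the 2 day SN arrays. Array 1 was the lowest of both VTA groups. Without 2 day MPTP VTA array 1 the median response difference of the list was 0.54. Without array 1 of both VTA groups it was 0.17. Without Control VTA array 1, Th stood at -0.16 and Slc6a3 at -0.013.

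Maob, the monoamine oxidase that converts MPTP, went the other way. Its values were -0.73, -0.37 and -0.012 in Control SN, 0.86, -0.56 and 0.16 in 2 day MPTP SN, 0.57, -0.40 and 0.57 in Control VTA and -0.99, -0.30 and 0.042 in 2 day MPTP VTA. The arrays of a group differed by more than 1 unit in 2 of the 4 groups and all groups overlapped. Maob had a response difference of -1.19 ± 0.51, with an interval of -2.27 to -0.11 and a limma adjusted p of 1.00. It is expressed in glia as well as in neurons, and it is set beside the glial markers further on.

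Genes known to differ between the regions showed a smaller regional difference after MPTP than in the controls. Of 18 genes enriched in the SN in earlier work, all 18 were lower in the VTA in the controls, with a median of -0.43, and 15 of 18 after 2 days, with a median of -0.14. Of 22 genes enriched in the VTA in earlier work, 16 were higher in the VTA in the controls, with a median of 0.28, and 7 after 2 days, with a median of -0.11. After 10 days the medians were -0.16 and 0.030. The response difference followed from this, above 0 in 17 of 18 SN-enriched genes with a median of 0.22 and below 0 in 19 of 22 VTA-enriched genes with a median of -0.27. A list that separates the regions in the controls must show such a pattern wherever the separation shrinks. Grin2c alone of the SN-enriched genes stood above 0 at an unadjusted p under 0.05, and no VTA-enriched gene did so in either direction.

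The SN-enriched list shares 5 members with the dopamine neuron list, among them Slc6a3, Aldh1a1 and Drd2. Their mean was 0.89, 0.32 and 0.34 on the Control SN arrays, -0.22, 0.033 and -0.25 on the 2 day SN arrays, -0.48, 0.26 and 0.38 on the Control VTA arrays and -0.88, 0.061 and -0.17 on the 2 day VTA arrays. Array 1 was again lowest in both VTA groups and highest in Control SN. On control arrays 2 and 3 the list means of the SN and the VTA lay close together. Without array 1 of all 4 groups the median response difference was 0.12. With 1 array left out, the median response difference ranged from 0.018 without 2 day MPTP VTA array 2 to 0.53 without 2 day MPTP VTA array 1. Sox6, a transcription factor of ventral SN neurons, had a response difference of 0.38 ± 0.24, with SN values of 0.63, 0.27 and 0.19 in controls and -0.31, 0.13 and -0.049 after 2 days.

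The VTA-enriched genes differed mainly on the SN arrays. Their mean was -0.45, -0.38 and -0.17 on the Control SN arrays and -0.0020, -0.083 and -0.034 on the 2 day SN arrays, against 0.079, -0.13 and 0.22 on the Control VTA arrays and -0.17, -0.038 and 0.11 on the 2 day VTA arrays. The SN groups did not overlap and the VTA groups did. The median response difference ranged from -0.42 without 2 day MPTP VTA array 2 to -0.20 without Control VTA array 1. It was -0.18 without array 1 of all 4 groups. Otx2, a transcription factor of VTA neurons, had values of 0.20, 0.88 and 1.29 in Control VTA and -0.63, -0.068 and 0.041 in 2 day MPTP VTA. The VTA groups were apart, and the response difference was -0.92 ± 0.45 with an interval of -1.87 to 0.032 that included 0. Calb1, the calcium buffer calbindin, had -0.45 ± 0.31, and its difference lay in the SN, at 0.57 ± 0.22.

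**Figure D3:**
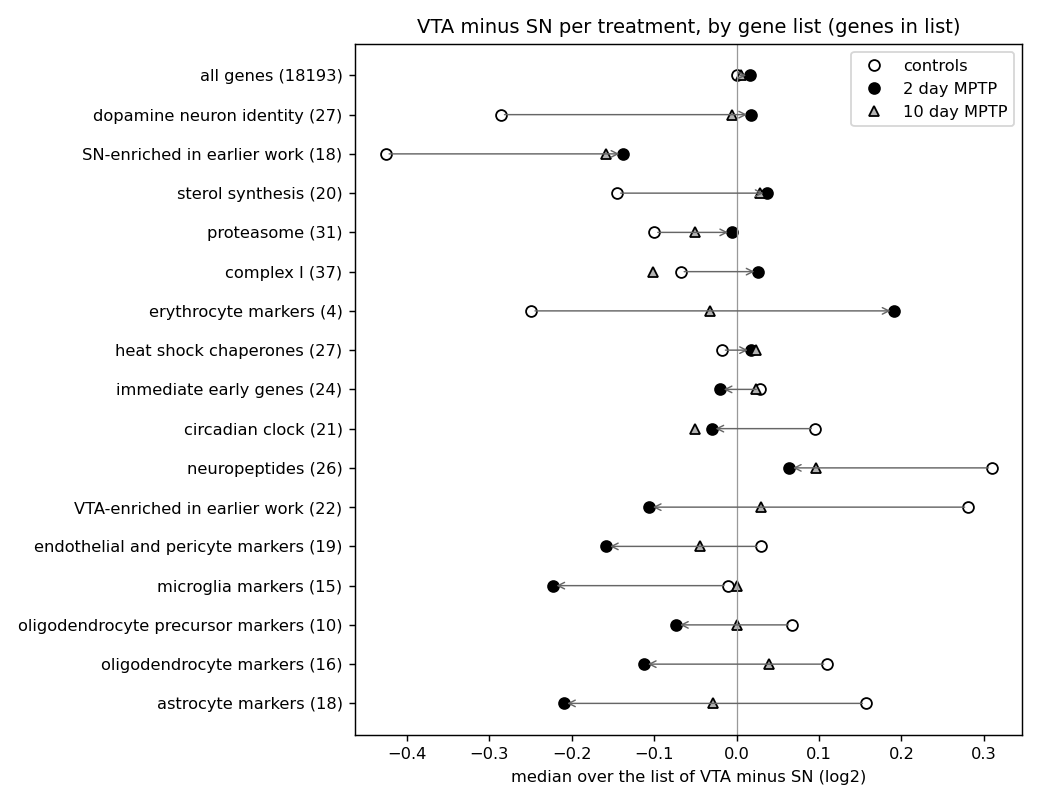
Median over each gene list of VTA minus SN (x axis, log2) in controls (open circles), after 2 days of MPTP (filled circles, arrow from the controls) and after 10 days (triangles), with the number of genes in brackets. The dopamine neuron and SN-enriched lists lie below 0 in the controls and move up after 2 days, the VTA-enriched and astrocyte lists lie above 0 and move below it, and all genes stay near 0.

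Markers of glia and vessels mostly had a VTA response below their SN response. Of 18 astrocyte markers, 17 had a response difference below 0, with a median of -0.34, and 4 stood below 0 at an unadjusted p under 0.05, Gjb6, S100b, Slc1a3 and Fgfr3, where 1.33% of all genes did. Their median SN response was 0.19 and their median VTA response -0.11, and VTA minus SN went from 0.16 in the controls to -0.21 after 2 days, where all 18 lay below 0. The mean over the list was -0.19, -0.053 and 0.027 on the Control SN arrays, 0.24, -0.036 and 0.11 on the 2 day SN arrays, 0.16, -0.010 and 0.030 on the Control VTA arrays and -0.22, -0.15 and -0.015 on the 2 day VTA arrays. The VTA groups were just apart and the SN groups overlapped, and the 12 medians with 1 array left out ran from -0.41 to -0.27. The median was -0.25 with array weights and without the 2 arrays of widest spread. Without array 1 of all 4 groups it was -0.19.

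Gjb6, which codes for connexin 30, had values of -0.17, 0.036 and -0.42 in Control SN, 0.34, 0.14 and 0.24 in 2 day MPTP SN, 0.53, 0.37 and 0.075 in Control VTA and -0.18, -0.036 and 0.18 in 2 day MPTP VTA. The SN groups were apart and the VTA groups overlapped. Its response difference was -0.76 ± 0.28, with a limma adjusted p of 1.00. S100b, a calcium-binding protein of astrocytes, had -0.67 ± 0.25, and Gfap, the intermediate filament of reactive astrocytes, had -0.67 ± 0.62. The glutamate transporter Slc1a3 had -0.61 ± 0.24 and the water channel Aqp4 -0.33 ± 0.31.

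The oligodendrocyte list was below 0 in 14 of 16 genes, with a median of -0.22 that ran from -0.33 without Control VTA array 3 to -0.12 without Control VTA array 2. Its median response was -0.42 in the VTA and -0.14 in the SN. Fa2h, the fatty acid hydroxylase of myelin lipids, was the member at an unadjusted p under 0.05, with values of 0.27, 0.84 and 0.39 in Control VTA and -0.48, -0.53 and -0.11 in 2 day MPTP VTA against -0.57, -0.024 and 0.23 in Control SN and -0.25, -0.18 and 0.024 in 2 day MPTP SN. The VTA groups were apart, the SN groups overlapped, and the response difference was -0.85 ± 0.28. Mog, a myelin surface protein, had -0.63 ± 0.32, and Mbp, myelin basic protein, -0.21 ± 0.16. Over the list the mean was -0.18, 0.078 and 0.43 on the Control SN arrays, -0.068, -0.14 and -0.043 on the 2 day SN arrays, 0.17, 0.48 and 0.066 on the Control VTA arrays and 0.012, -0.43 and -0.20 on the 2 day VTA arrays. The VTA groups were apart and the SN groups overlapped. Precursor markers were below 0 in 9 of 10 genes, with a median of -0.21, which was -0.13 without Control VTA array 2.

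Microglia markers were below 0 in 11 of 15 genes, with a median of -0.20. Itgam, the integrin CD11b, had -0.62 ± 0.22, P2ry12 had -0.69 ± 0.39 and Csf1r, the receptor for colony-stimulating factor 1, -0.53 ± 0.27, while the complement gene C1qa stood above 0 at 0.27 ± 0.47. The list's mean was -0.078, 0.21 and -0.0080 on the Control SN arrays, 0.038, -0.11 and 0.052 on the 2 day SN arrays, 0.057, 0.079 and 0.00 on the Control VTA arrays and -0.49, -0.14 and -0.0080 on the 2 day VTA arrays. Array 1 of 2 day MPTP VTA was the lowest of all 12, and the median without that array was -0.080. It was -0.068 without 2 day MPTP SN array 1, -0.041 with array weights and above 0, at 0.067, without array 1 of all 4 groups. Markers of endothelium and pericytes were below 0 in 14 of 19 genes, with a median of -0.19, which was -0.046 without 2 day MPTP VTA array 1. Their mean was 0.036, 0.14 and 0.11 on the Control SN arrays, -0.041, -0.050 and -0.091 on the 2 day SN arrays, -0.010, 0.0050 and 0.17 on the Control VTA arrays and -0.44, -0.24 and -0.070 on the 2 day VTA arrays, apart in both regions.

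Kcnj8, the Kir6.1 potassium channel subunit of pericytes, had the largest response difference of the vascular list. Its values were -1.43, -0.24 and 0.010 in Control SN, 0.028, 0.30 and -0.33 in 2 day MPTP SN, 0.46, 0.55 and 1.01 in Control VTA and -0.86, -0.21 and -0.41 in 2 day MPTP VTA. The VTA groups were apart and Control SN array 1 lay far below the other SN controls. Kcnj8 had a response difference of -1.72 ± 0.49, with 71.2% from the controls. Pecam1, an adhesion molecule of endothelium, went the other way at 1.02 ± 0.50. The 4 erythrocyte genes were all above 0, with a median of 0.44, and Hbb-b2, a beta globin, had 0.42 ± 0.36. The 2 alpha globin genes are near-identical and their signals cannot be told apart with certainty.

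The marker lists of astrocytes, oligodendrocytes, microglia and vessels thus had medians below 0 with all arrays in, where the dopamine neuron list had one above 0. Their part in the response differences of single genes was not tested. Itgam is itself a member of the microglia list, and Gjb6 and S100b of the astrocyte list, so their values are part of those medians. P2rx7, Fcgr1 and Casp1, which microglia express, and Maob, which astrocytes express, are not members. They all come from the genes with a lower VTA response, and whether they follow those lists was not tested. Casp1, the inflammasome protease, had -0.98 ± 0.39. Hmox1, the heme-degrading enzyme induced by oxidative stress, had values of 0.70, 0.62 and 1.16 in Control VTA and -0.84, -0.13 and 0.046 in 2 day MPTP VTA, apart, against -0.40, -0.20 and 0.56 in Control SN and 0.52, 0.0020 and -0.099 in 2 day MPTP SN. Its response difference was -1.29 ± 0.39, with 65.1% from the controls.

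**Figure D4:**
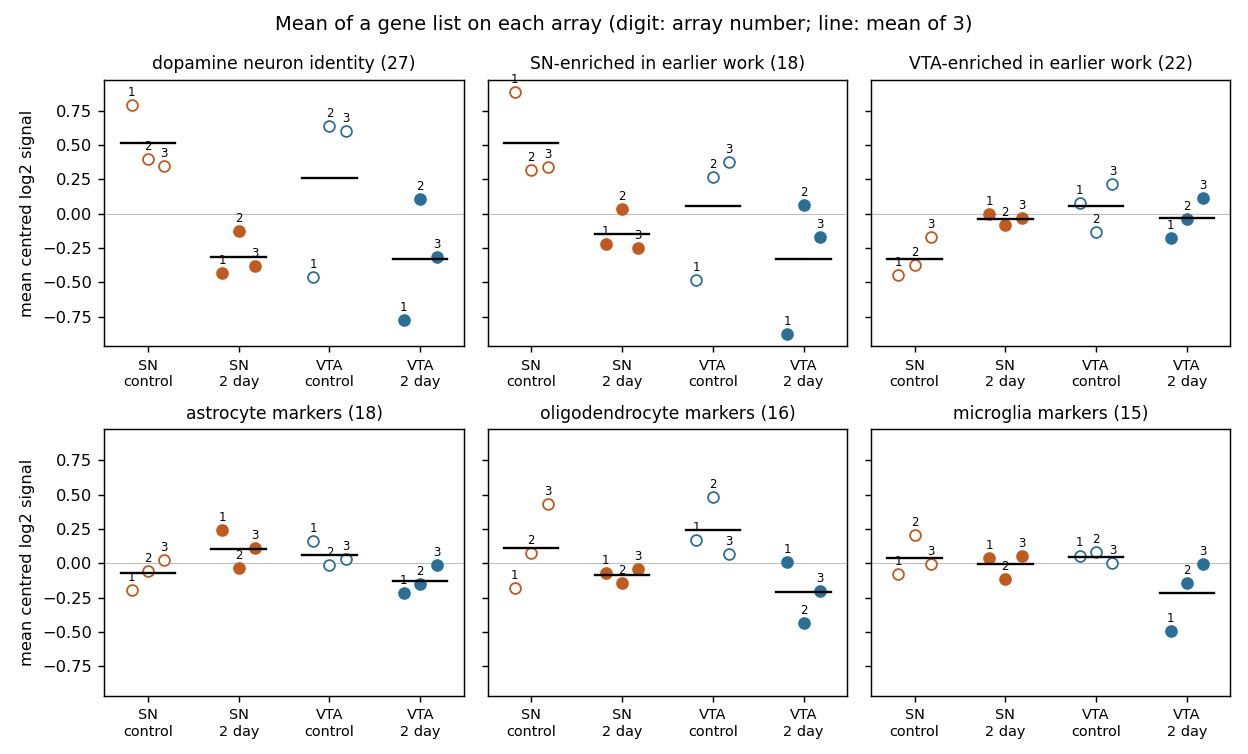
Mean centred log2 signal of 6 gene lists on each array, with the array number above each point, SN in orange, VTA in blue, controls open and 2 day MPTP filled. Array 1 is lowest in both VTA groups for the dopamine neuron and SN-enriched lists, and the 2 day VTA arrays are the lowest group for the astrocyte, oligodendrocyte and microglia lists.

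Mitochondrial genes differed little. Of 37 complex I genes, 27 had a response difference above 0, with a median of 0.064, and 34 of 43 genes of complexes II to V, with a median of 0.060. The complex I genes ranged from -0.13 to 0.69. Ndufa8, an accessory subunit, was the member of complex I at an unadjusted p under 0.05, at 0.39 ± 0.18. Its values were 0.057, 0.18 and 0.37 in Control SN, -0.10, 0.095 and -0.052 in 2 day MPTP SN, -0.0020, -0.23 and 0.073 in Control VTA and 0.14, 0.20 and 0.011 in 2 day MPTP VTA, and the groups overlapped in both regions. Proteasome genes were above 0 in 22 of 31, with a median of 0.092, none at an unadjusted p under 0.05.

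Sterol synthesis genes were above 0 in 15 of 20, with a median of 0.18, none at an unadjusted p under 0.05. Their median response was -0.22 in the SN, where 18 of 20 lay below 0, and -0.15 in the VTA. The sign of the list's median was kept with each of the 12 arrays left out, from 0.11 to 0.23, and fell to 0.019 without array 1 of all 4 groups. Of 13 genes of familial Parkinson disease, 9 were above 0, with a median of 0.27, which was 0.029 without 2 day MPTP VTA array 1 and -0.025 with array weights. Park7, a redox-sensitive chaperone, had 0.27 ± 0.19 and Pink1, the mitochondrial kinase, 0.011 ± 0.15.

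Neuropeptide genes were below 0 in 19 of 26, with a median of -0.19. With 1 array left out the median ran from -0.33 without 2 day MPTP VTA array 3 to -0.073 without Control VTA array 3. It was above 0 with array weights, at 0.0049, without the 2 arrays of widest spread, at 0.038, and without array 1 of all 4 groups, at 0.044. Tac2, which codes for neurokinin B, had values of -2.73, -0.96 and -0.34 in Control SN, 2.08, 0.65 and 0.37 in 2 day MPTP SN, -0.40, -0.30 and 0.77 in Control VTA and -0.074, 0.044 and 0.83 in 2 day MPTP VTA. The SN groups were apart, but each spread over more than 1.5 units, and array 1 was the lowest control and the highest 2 day array. For Tac2 the response difference was -2.14 ± 0.76, with an interval of -3.74 to -0.53 and a limma adjusted p of 1.00. Adcyap1, the peptide PACAP, had -1.30 ± 0.98, with values from -2.21 to 0.016 among the SN controls alone.

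Medians of the stress and signalling lists were small, and most changed sign with 1 array left out. The median was 0.017 for heat shock chaperones, where 16 of 27 genes lay above 0, and it was -0.060 for unfolded protein response genes, which ran from -0.090 to 0.0028 with 1 array left out. Apoptosis genes had 0.068, with a range of -0.069 to 0.15, and antioxidant genes -0.056, with a range of -0.084 to 0.019. Of the 27 antioxidant genes, 2 were below 0 at an unadjusted p under 0.05, Hmox1 and Mt2, where 1.33% of all genes were. Mt2, a metallothionein, had -0.81 ± 0.36. Immediate early genes had a median of -0.064, which was 0.14 without Control SN array 1. Leaving out the 2 arrays of widest spread gave 0.34. Among them Ier2 was the member at an unadjusted p under 0.05, at 0.60 ± 0.27. Clock genes had a median of -0.10, with 15 of 21 below 0, and the median was -0.30 without Control SN array 2, 0.061 without Control SN array 1 and -0.32 with the probe set of largest SD for each gene. Bhlhe41, a repressor of the clock, had -0.57 ± 0.27.

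A few members of further lists stood at an unadjusted p under 0.05, where 1.97% of all genes did so above 0 and 1.33% below. Of 25 ionotropic glutamate and GABA receptor genes 1 stood above 0, Grin2c, and 1 below, Grin3a. Above 0 there was 1 of 35 axon guidance genes, Ntn1, and 1 of 13 genes of MHC class I and antigen processing, Tap2. Grin3a, the GluN3A subunit of the NMDA receptor, had -0.72 ± 0.25, negative in all 3 of its probe sets, with an SN response of 0.68 ± 0.17. Ntn1, the guidance cue netrin 1, was lower after MPTP in both regions without overlap, by 1.00 in the SN and 0.36 in the VTA, and had a response difference of 0.64 ± 0.29. Tap2, a transporter of antigen peptides, had 0.64 ± 0.24. Dnali1, an axonemal dynein light chain, had 0.67 ± 0.23. It and Capsl were the 2 of 27 ependyma, cilium and choroid plexus markers above 0 at that p. The median of that list was -0.16, with 16 of 27 below 0, and it changed sign with single arrays left out.

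Of the 34 lists, 17 had a median whose sign changed with 1 of the 12 arrays left out. The lists of astrocyte, oligodendrocyte, microglia and VTA-enriched genes were not among them, though the microglia median changed sign without array 1 of all 4 groups, and the dopamine neuron list was. Among the 601 single genes, 162 stayed at an unadjusted p under 0.05 with each of the 12 arrays left out in turn. The fewest, 307, stayed without 2 day MPTP VTA array 1, which had the widest spread of values, and 472 without 2 day MPTP VTA array 2.

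**Figure D5:**
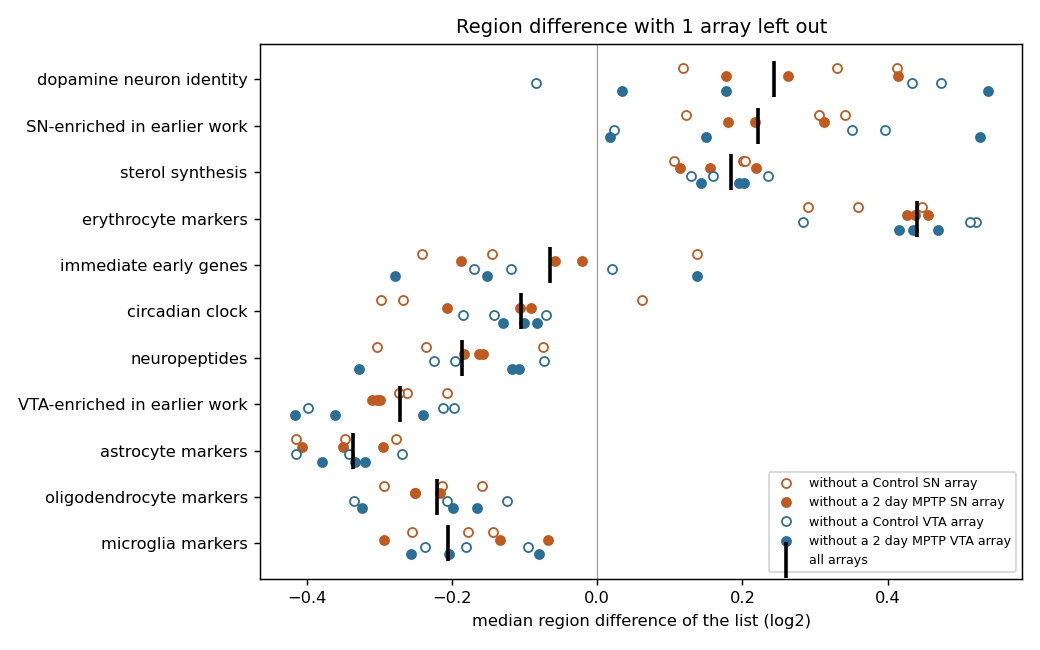
Median response difference (x axis, log2) of 11 gene lists with all arrays (black bar) and with each of the 12 arrays left out in turn (points coloured by the region and treatment of the array left out). The astrocyte list stays between -0.41 and -0.27, while the dopamine neuron list runs from -0.085 to 0.54.

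Some of the largest responses were alike in both regions. Wdfy1, an endosomal protein with FYVE and WD40 domains, fell in the VTA, the change that passed in limma. Its values were -0.096, 0.045 and 0.29 in Control SN, -0.72, -0.79 and -0.69 in 2 day MPTP SN, 0.067, 0.38 and 0.085 in Control VTA and -1.16, -0.82 and -0.89 in 2 day MPTP VTA. All 2 day arrays lay below all controls. The VTA response was -1.13 ± 0.13 with a limma adjusted p of 0.00515, and the SN response was -0.81 ± 0.13. The response difference was -0.32 ± 0.19, with an interval of -0.72 to 0.083, negative in all 5 probe sets. The 2 day VTA arrays lay wholly below the 2 day SN arrays while the controls overlapped, so the controls gave 30.7% of it.

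Per2, a repressor of the circadian clock, had every 2 day array above every control of its region. Its values were -0.19, -0.23 and -0.13 in Control SN, 0.72, 0.93 and 0.89 in 2 day MPTP SN, -0.036, -0.40 and 0.43 in Control VTA and 0.91, 0.61 and 0.61 in 2 day MPTP VTA. Its response difference was -0.32 ± 0.24, with an interval of -0.83 to 0.19. Fmo2, a flavin monooxygenase, had an SN response of 1.08 ± 0.17 and a VTA response of 0.82 ± 0.17, apart from the controls in both, and a response difference of -0.26 ± 0.24 with an interval of -0.77 to 0.24. Hspa1b, an inducible heat shock protein of the Hsp70 family with a near-identical neighbour in Hspa1a, had 0.97 ± 0.24 in the SN and 1.31 ± 0.24 in the VTA. Its response difference was 0.33 ± 0.34, which turned negative, to -0.13, when quantile normalisation was repeated. The intervals of these genes include 0 and also include differences of over 0.7 in size, so equal responses are not shown.

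Capsl, a calcium-binding protein related to calcyphosine, rose in the VTA, the other change that passed in limma. Its values were -2.08, -1.48 and -0.73 in Control VTA and 0.62, 0.96 and 1.56 in 2 day MPTP VTA, and -0.15, -0.34 and -0.22 in Control SN and -0.15, 0.85 and 1.47 in 2 day MPTP SN. The VTA groups were far apart, while in the SN the lowest 2 day array was level with the highest control. The VTA response was 2.48 ± 0.37 with a limma adjusted p of 0.0414, and the SN response was 0.96 ± 0.37. For Capsl the response difference was 1.51 ± 0.52, with an interval of 0.42 to 2.61, of which 79.0% came from VTA controls that lay below the SN controls. After 2 days the regions overlapped, with VTA minus SN at 0.32. Noxred1, an oxidoreductase of unclear role, had 1.24 ± 0.49, and there the 2 day arrays made up most of it, with 26.7% from the controls.

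The 10 day groups gave a view of the 2 day arrays that does not rest on the controls, though the 10 day mice had received MPTP too. The response difference for 10 days, which shares its controls with that for 2 days, had 576 genes (3.17%) at an unadjusted p under 0.05 and no gene passing in limma (0%). VTA minus SN after 2 days less VTA minus SN after 10 days, which uses no control array, had 349 (1.92%) and none (0%). The counts of 576 and 349 both lie below the 910 expected with no difference. In the comparison without control arrays P2rx7 stood at -0.26 ± 0.28, Trdn at -0.63 ± 0.23, Lpar6 at -1.06 ± 0.59 and Zfp112 at 0.27 ± 0.20. Lmo1 stood at 0.56 ± 0.26 and Zwilch at 0.73 ± 0.44. Galk2 stood at 0.12 ± 0.20 and Grin2c at -0.12 ± 0.22. For Zfp112, P2rx7, Galk2 and Grin2c these are small beside the response difference, in which the controls took the larger part. The values of Zwilch, Lmo1, Trdn and Lpar6 also lay closer to 0 than their response differences. All of these genes were picked for a small p in a comparison that uses the controls. Values closer to 0 without the controls can follow from that choice alone. For the dopamine neuron list the median was -0.058 and for the astrocyte list -0.22, beside 0.0050 over all genes.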

How the data were processed

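Expression was measured on Affymetrix arrays in 18 samples, grouped by their titles. Per the series' design text, the authors deposited log2 values made by RMA in GeneSpring GX 10.0. The deposited log2 values have a median of 0 over the 18 arrays for every probe set, to within 5e-07, a centring that no source states. They ran from -5.02 to 6.72 with 0 missing, array medians from -0.0078 to 0.0158, and the median absolute deviation of an array from 0.123 to 0.269, widest on 2 day MPTP VTA array 1 and Control SN array 1. Without levels, dim probe sets could not be filtered out, and precision is limited by 3 arrays per group. Background correction is not given in the sources used here.

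Of 45101 probe sets, 34945 had 1 gene symbol in the platform annotation, 932 had several and 9160 had none. A further 64 controls were dropped. By gene ID 99.42% of the 34945 matched RefSeq. Probe sets of a gene were averaged. limma 3.58.1 in R 4.3.3 was fitted to 6 group means over all 18 arrays (12 residual and 4.06 prior degrees of freedom), with two-sided Benjamini-Hochberg adjusted p-values over 18193 genes. The fit was tested on simulated data. The comparison, its members and the 34 gene lists were chosen with earlier results of these data known, and lists carry no test. Genes named are the 12 of smallest p each way, up to 2 members each way of a list at an unadjusted p under 0.05, up to 8 each way whose groups lay apart in opposite directions, and a set of dopamine neuron and 2 day response genes. Other genes are named as members of lists. Alternatives covered the groups fitted, the probe sets of a gene, centring, repeated quantile normalisation, array weights, arrays left out and the replicate number as a block. Same-numbered SN and VTA arrays had deviations from their group means that correlated from 0.05 to 0.40, above 0 in every pair. Other pairs within a treatment ran from -0.29 to 0.14, and the consensus correlation of same-numbered arrays within treatment was 0.19. Pairing was thus neither shown nor excluded. Since the labels do not state it, the main fit left it out, and fits with the number as a block are given below.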

Additional observations from a re-analysis of the deposited data

Results flagged for a closer look

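In 18 of the genes named in the report, every 2 day VTA array lay on one side of every VTA control and every 2 day SN array on the other side of every SN control. For 16 of them this arrangement was itself a rule for naming, so the count of 18 follows from the choice of genes. The response difference, VTA response minus SN response in log2, was 1.09 for Zfp112, 1.32 for Lmo1, 2.18 for Zwilch, 0.935 for Galk2, 0.77 for Zfp560 and 0.73 for Ostm1. It was 0.624 for Mgat4d, 1.01 for Ccnq, 0.962 for Wdr60 and 0.76 for Lgmn. In the reverse direction it was -0.913 for Palb2, -0.881 for Zfp948, -0.75 for Scarb1 and -0.691 for Ppp1r27. It was -0.659 for Trak2, -0.576 for Abhd17b, -0.572 for Nfat5 and -0.521 for Orm1. The limma test of the difference itself gave adjusted p-values from 0.701 to 1.00 over these genes, so none passed. Groups lie apart in this opposite way in 45 of 18193 genes (0.247%).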

How the results depend on the processing

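Under all 24 alternatives the number of genes passing for the response difference was 0 in limma, as it was with the probe sets tested singly, where 0 of 34945 passed and 1170 stood at an unadjusted p under 0.05. Over genes, the count at an unadjusted p under 0.05 ran from 488 to 924, and the smallest adjusted p of any setting was 0.202, with array weights. With the replicate number as a fixed block the numbers were 0 genes passing and 724 at an unadjusted p under 0.05, with the block within treatment 0 and 889, and with a random block 0 and 924. The block changed no call. In the 2 day groups SN array 3 correlated better with VTA array 2 than with its own number. Of 67 named genes, 61 kept their direction under every alternative. With 1 array left out, Th ran from -0.16 to 0.863, Slc6a3 from -0.0134 to 0.828, Slc18a2 from -0.245 to 0.707 and Aldh1a1 from -0.165 to 0.753. Without array 1 of all 4 groups, a setting chosen after seeing the data, Th was at -0.155, Slc18a2 at -0.108 and Ret at -0.0437. Hspa1b was at -0.131 with repeated quantile normalisation and at -0.0525 without the 2 arrays of widest spread. Of the 34 gene lists, 24 had a median that moved by more than the SD between replicates under at least 1 alternative. For these reversals and moves the cause was not tested. With 3 arrays a group, the interval of a typical gene reached 1.49-fold to either side of its estimate. That width is not a limit above which a difference would have passed in limma. Log2 response differences of 2.18 for Zwilch and -2.12 for Lpar6 did not pass. Centred values leave weak and strong probe sets alike.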
